A study of Mus musculus with 8 samples.

Results

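Inka2 (older symbol Fam212b) and 5 p21-activated kinases, Pak1, Pak2, Pak3, Pak4 and Pak6, were followed in RNA-seq libraries of mouse spinal cord astrocytes, 6 genes of the 39179 in the count tables. Inka2 was taken by its Ensembl identifier (ENSMUSG00000048458) because its counts differed between the genotypes in these same libraries, so its difference is described here and not tested. The kinases were taken by gene symbol, as the family that the Inka2 protein acts on. The cells were sorted for an Aldh1l1-GFP reporter from the cords of mixed Swiss-Webster mice aged P12-P14. The 4 control libraries (S1, S2, S6 and S7) came from cre-negative mice, which the labels also call wild-type. The 4 conditional knockout (cKO) libraries (S3, S4, S5 and S8) came from mice with Aldh1l1-cre and both Kir4.1 alleles floxed. Aldh1l1, an astrocyte gene, drives both the reporter and the cre, and the cells of all 8 libraries carried the reporter. Kcnj10 encodes Kir4.1, a potassium channel through which astrocytes clear potassium, and the study's title asks of its part between astrocytes and fast motor neurons.

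The p21-activated kinases are serine/threonine kinases that bind the active small GTPases Cdc42 and Rac and pass their signal to the actin cytoskeleton, adhesion sites and cell survival proteins. Group I (Pak1, Pak2, Pak3) is held inactive as a dimer until a GTPase binds, and group II (Pak4, Pak5, Pak6) is controlled through a pseudosubstrate segment. Inka1 and Inka2 are small proteins that bind Pak4 and block its catalytic site. In astrocytes, signalling by these GTPases is known for shaping fine processes.

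Gene reads per library ranged from 13892736 (control S2) to 25065686 (cKO S8), and levels are given as CPM, the usual depth-scaled count, computed with edgeR's TMM factors. Kcnj10 was at 1181 to 2306 CPM in the controls and at 27.2 to 37.6 CPM in cKO, so every library matched its label. Markers of astrocytes were present in all libraries, with a mean over 12 genes of 9.32 to 9.81 log2 CPM in controls and 9.62 to 9.80 in cKO. Single markers differed more: Aldh1l1 was at 131 to 151 CPM in controls and at 244 to 350 CPM in cKO. Aqp4 was at 1588 to 2454 and 3373 to 5268 CPM, while Fgfr3 was on average lower in cKO, at 621 to 903 and 559 to 648 CPM. Transcripts of the oligodendrocyte lineage were also present, and are given beside the results they move with. Across all 14757 genes tested, 47 had an adjusted p under 0.05 (0.318%), 30 higher (0.203%) and 17 lower (0.115%) in cKO. That test was the quasi-likelihood test of edgeR, adjusted by Benjamini-Hochberg over all genes tested.

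Inka2 was higher in cKO astrocytes than in control astrocytes. The gene is protein coding, sits on chromosome 3 at 105704599 to 105720842 (GRCm38, plus strand), and has 3 merged exons of 227, 80 and 4474 bp. Most of its 4781 bp of exon are in the third, from 105716369 to 105720842. No other annotated gene overlaps it.

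In the controls Inka2 was at 19.3 (S1), 12.4 (S2), 11.9 (S6) and 27.5 (S7) CPM. The cKO values were 46.7 (S3), 94.2 (S4), 95.3 (S5) and 88.0 (S8) CPM. Every cKO library was above every control library. The lowest cKO library, S3, lay between the highest control and the other cKO libraries. The group means were 17.8 CPM ± 7.32 in controls and 81.1 CPM ± 23.1 in cKO (SD, n = 4 each), a 4.56-fold ratio. The log2 fold change fitted by edgeR was 2.19 (standard error, SE, 0.31), which ranked 89 among the 14757 genes ordered from the largest increase down. In the authors' deposited table, where fold changes are shrunken, Inka2 is listed with a log2 fold change of 1.83 (SE 0.27). Within a group the libraries also differed: the highest control was 2.31 times the lowest, and the highest cKO library was 2.04 times the lowest.

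Counted per length, Inka2 moved from the lower to the upper part of the range of expressed genes. Its mean FPKM, fragments per kilobase of exon scaled to library depth, as deposited by the authors, was above that of 37.4% of the tested genes in controls and of 76.4% in cKO. That mean was 4.84 FPKM ± 1.73 in controls and 21.9 FPKM ± 6.23 in cKO (SD, n = 4 each).

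**Figure D1:**
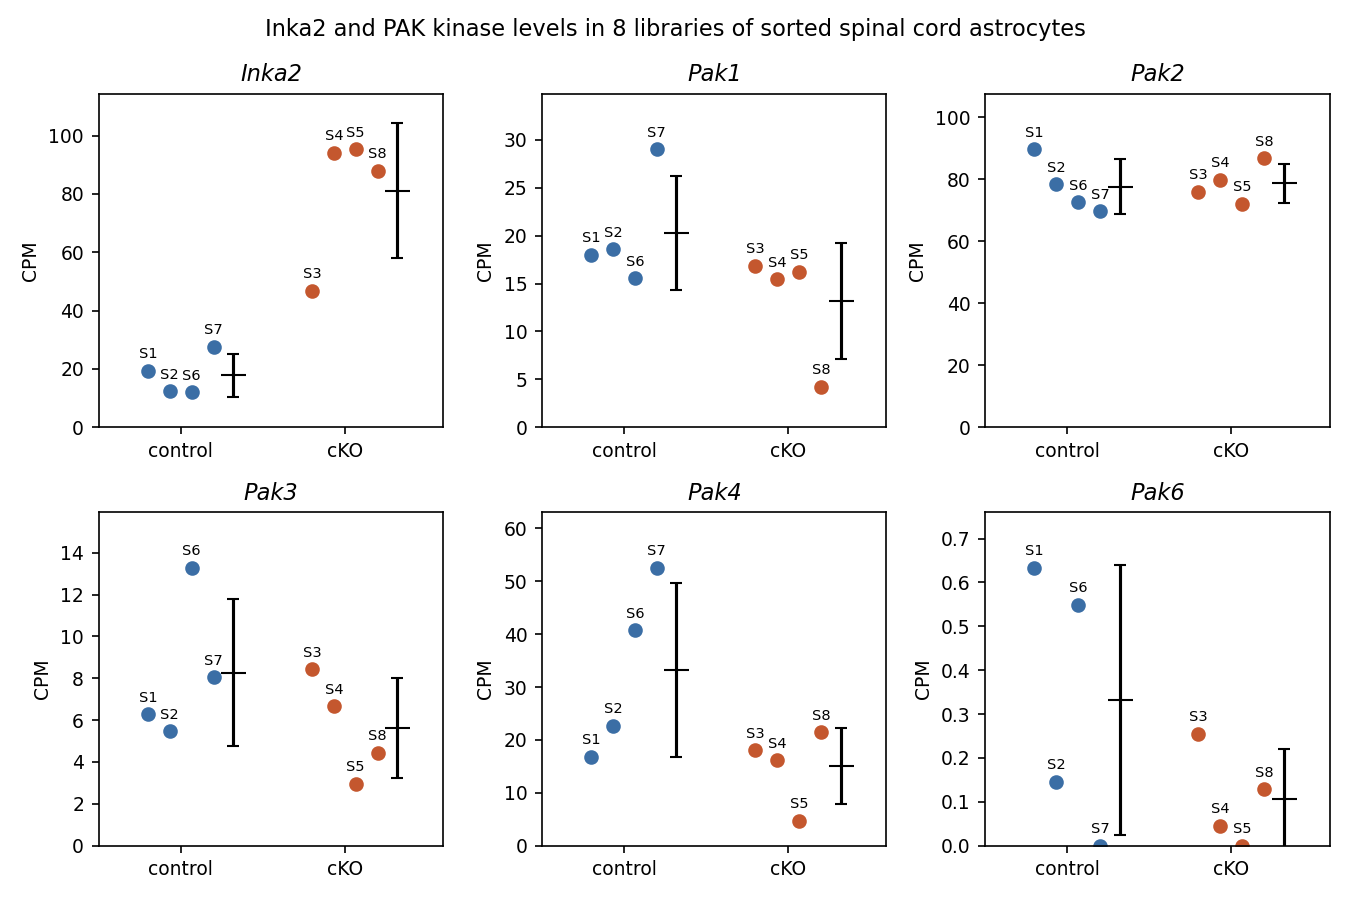
Levels of Inka2 and the 5 kinases in CPM (vertical axes, each starting at 0) for 4 control (blue) and 4 cKO (orange) libraries; points are single libraries with their numbers, and the black bar is the mean ± SD (cut at 0 for Pak6 in cKO). All cKO libraries lie above all controls for Inka2, whereas the groups overlap for each kinase.

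Inka1, the other inhibitor of the family, was near the detection limit, with 70 counts summed over 8 libraries, and did not pass the filter on low counts. The controls held 2 (S1), 9 (S2), 17 (S6) and 31 (S7) counts of Inka1, while cKO S4 held 11 and the other cKO libraries 0. A count of 0 allows up to 3 counts, or 0.128 to 0.171 CPM in those 3 libraries, and the values of the groups overlapped. Inka2, by contrast, had at least 170 counts in every library.

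None of the 4 kinases that could be tested passed the threshold. Pak1, Pak2, Pak3 and Pak4 passed the filter on low counts and Pak6 did not, so 5 of the 6 members entered the fit. Of these 4 kinases, 0 had an adjusted p under 0.05 with edgeR, with DESeq2 or with limma-voom, against 0.318% of all genes with edgeR, 2.08% with DESeq2 and 0.325% with limma-voom. With each tool 1 of the 4 had an unadjusted p under 0.05 (Pak4 in edgeR), against 9.81% of all genes with edgeR, 11.6% with DESeq2 and 10.6% with limma-voom. The members were chosen with this comparison in view, so these counts are given as a description. The log2 fold change was below 0 for 3 of the 4, against 51.6% of all genes tested.

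Pak4 is the group II kinase that binds the INKA proteins. It lies on the minus strand of chromosome 7, from 28558819 to 28598185, and 39 of its 3535 exon bases are shared with Samd4b, a gene not analysed here. The controls held 16.8 (S1), 22.7 (S2), 40.8 (S6) and 52.6 (S7) CPM of Pak4. Its cKO values were 18.1 (S3), 16.1 (S4), 4.73 (S5) and 21.4 (S8) CPM. The cKO values lay around or below the lower controls, and control S1 was below 2 of the cKO libraries. Means were 33.2 CPM ± 16.4 in controls and 15.1 CPM ± 7.24 in cKO (SD, n = 4 each), and edgeR gave a log2 fold change of −1.14 (SE 0.44). The controls S6 and S7 carried most of the control level.

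Pak1, the founding group I kinase, lies on chromosome 7 from 97788541 to 97912381. Control levels were 18.0 (S1), 18.6 (S2), 15.5 (S6) and 29.0 (S7) CPM. The cKO levels were 16.9 (S3), 15.5 (S4), 16.2 (S5) and 4.19 (S8) CPM. Single libraries set the group means: control S7 was high and cKO S8 was low, while the other 6 lay between 15.5 and 18.6 CPM. Its log2 fold change was −0.62 (SE 0.39), moving to −0.33 without cKO S8 and −0.39 without control S7.

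Pak2, the group I kinase found in nearly all tissues, had the steadiest level of the members. Controls held 89.7 (S1), 78.3 (S2), 72.6 (S6) and 69.6 (S7) CPM, and cKO libraries held 75.9 (S3), 79.8 (S4), 72.1 (S5) and 86.7 (S8) CPM. The groups covered the same range, with means of 77.6 CPM ± 8.85 and 78.6 CPM ± 6.24 (SD, n = 4 each). The log2 difference between them was 0.020 with a 95% interval from −0.31 to 0.35, so a change of 1.5-fold or more in either direction lies outside that interval, and its sign turned with single libraries: it was −0.010 without control S6, −0.022 without control S7 and −0.030 without cKO S8.

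Pak3, a group I kinase best known from neurons, lies on chromosome X from 143518591 to 143797796. Its level was 6.27 (S1), 5.46 (S2), 13.3 (S6) and 8.05 (S7) CPM in the controls. In cKO it was 8.43 (S3), 6.67 (S4), 2.96 (S5) and 4.45 (S8) CPM. Control S6 was the highest and the other controls lay within the range of the cKO libraries. Its log2 fold change was −0.56 (SE 0.43), and −0.23 without control S6.

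Pak6, a group II kinase on chromosome 2, was at the detection limit. The controls held 10 (S1), 2 (S2), 10 (S6) and 0 (S7) counts and the cKO libraries 5 (S3), 1 (S4), 0 (S5) and 3 (S8), 31 in all. The counts of 0 allow up to 0.142 CPM in control S7 and 0.171 CPM in cKO S5. The remaining family member, Pak5, is listed as Pak7 and was not among the 6 genes. Its level was 0.634 to 1.75 CPM in controls and 0.128 to 1.94 CPM in cKO, so the groups overlapped (log2 fold change −0.64, standard error 0.85). That value was −1.35 without cKO S3, −0.39 without cKO S5 and −0.27 without cKO S8.

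Levels of different genes can be compared only per length, here within each FPKM column and over both genotypes. Over all 8 FPKM columns the order of mean levels was Pak2 (22.4 FPKM ± 2.74), Inka2 (13.4 ± 10.1), Pak4 (13.2 ± 8.52), Pak1 (6.85 ± 2.60), Pak3 (1.85 ± 1.49) and Pak6 (0.0746 ± 0.0795) (SD, n = 8). Neighbouring genes in this order were compared by an exact two-sided sign-flip permutation test of log2(FPKM + 0.1). With 8 columns it allows no p below 0.0078. The 5 pairs of the adjustment include those with Inka2. The order itself was taken from the same FPKM values. In this order Inka2 lay between Pak2 and Pak4, so Pak2 was not compared with Pak4. Pak1 was above Pak3 in 8 of 8 columns, by 2.05 ± 1.18 on that log2 scale (SD, n = 8; exact p = 0.0078, adjusted over 5 pairs 0.020). Pak3 was above Pak6 in 8 of 8 columns, by 3.25 ± 1.14 (SD, n = 8; exact p = 0.0078, adjusted 0.020). With Pak6 at the detection limit, the size of that difference depends on the value added to FPKM. It was 1.26 with 1 added and 4.82 with 0.01. Pak4 was above Pak1 in 7 of 8 columns, by 0.77 ± 1.25 (SD, n = 8; exact adjusted p = 0.16), which is not beyond their spread. Inka2 was chosen for its genotype difference, so its place is only described and no p-value is given for it. On the log2 scale Pak2 was 1.16 ± 1.28 above Inka2, and Inka2 differed from Pak4 by −0.11 ± 2.13 (SD, n = 8). Its mean over all columns was below that of Pak4 when any 1 cKO column was left out.

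**Figure D2:**
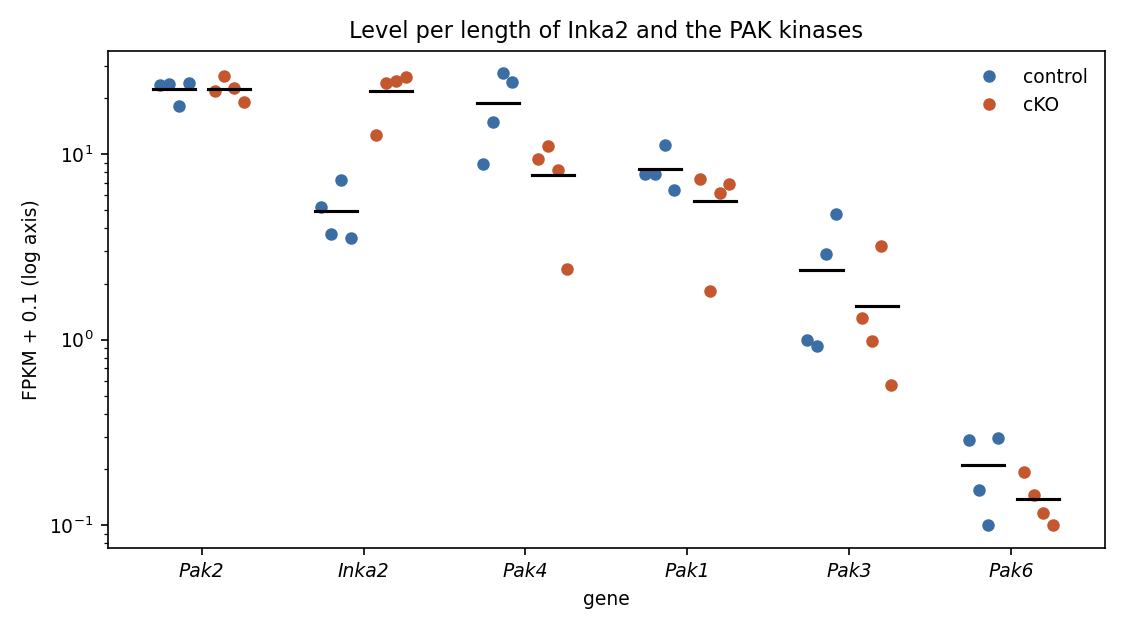
FPKM + 0.1 on a log axis for the 6 genes, ordered by their mean over all 8 columns; points are single FPKM columns of the control (blue) and cKO (orange) groups, and black lines are group means. Pak2 lies between 18.0 and 26.2 FPKM in both groups, while the Inka2 mean is below those of Pak4 and Pak1 in controls and above them in cKO.

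The place of Inka2 in this order depended on the genotype. By mean FPKM in the controls it was below Pak2 (22.4), Pak4 (18.8) and Pak1 (8.21), and in cKO it was next to Pak2 (22.4 FPKM), above Pak4 (7.68) and Pak1 (5.49). By mean CPM per kilobase of exon in cKO it was above Pak2, at 17.0 ± 4.83 against 11.6 ± 0.919 (SD, n = 4 each). In cKO S3, however, Inka2 was below Pak2 on this scale, at 9.77 against 11.2. On the same scale Inka2 and Pak4 can be set against each other within each library. Inka2 stood at 0.848 (S1), 0.403 (S2), 0.216 (S6) and 0.387 (S7) of the Pak4 level in the controls. In cKO the same ratio was 1.91 (S3), 4.31 (S4), 14.9 (S5) and 3.04 (S8). Inka2 was thus below Pak4 in all 4 controls and above it in all 4 cKO libraries; the ratio of 14.9 in cKO S5 goes with the lowest Pak4 level of any library. Against Pak1 to Pak4 summed, Inka2 stood at 0.0905 to 0.174 in controls and at 0.456 to 1.22 in cKO. These ratios use the difference for which Inka2 was chosen, and are given without a test.

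**Figure D3:**
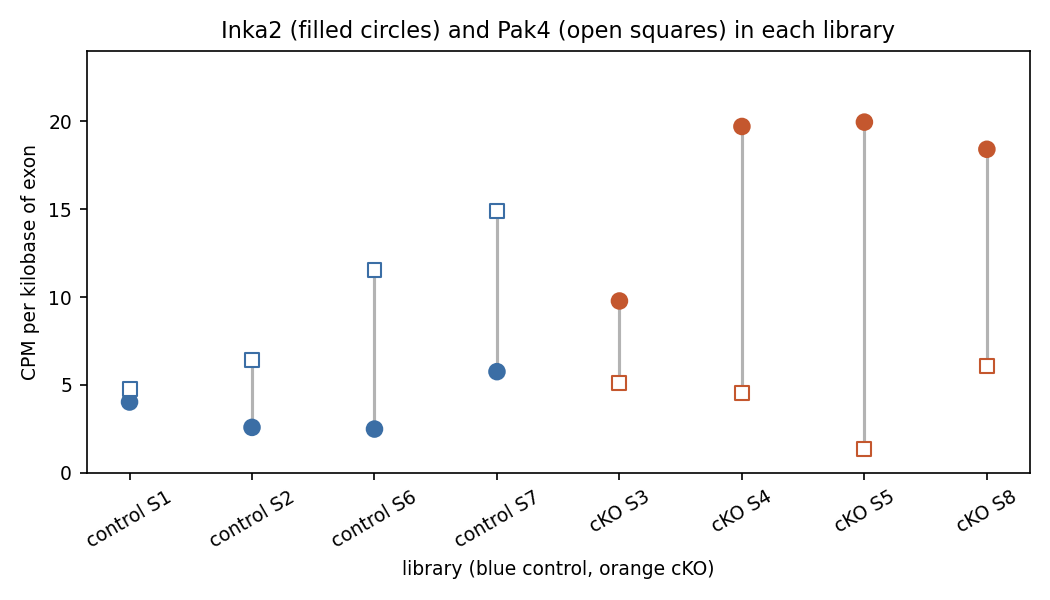
CPM per kilobase of exon (vertical axis, from 0) of Inka2 (filled circles) and Pak4 (open squares) in each of the 8 libraries, joined by a grey line within a library. Pak4 is the upper symbol in all 4 controls (blue) and Inka2 in all 4 cKO libraries (orange).

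Because the sorted cells also contained oligodendrocyte-lineage RNA, the levels of its markers were set beside the members. The mean log2 CPM of 6 oligodendrocyte precursor genes was 4.01 to 5.95 in controls and 3.47 to 4.89 in cKO. For 8 genes of committed precursors, among them Gpr17 and Bmp4, it was 5.60 to 7.05 and 5.50 to 6.09, and for 12 genes of myelinating oligodendrocytes 5.81 to 6.78 and 4.62 to 6.18. Of these 26 genes, 0 were at 0 in any library, 23 had a lower mean in cKO, beside 51.6% of all genes tested with a log2 fold change below 0. Groups did not overlap for 2 of the 26, beside 6.34% of all genes tested. The summed CPM of the oligodendrocyte precursor list went the other way, 1311 to 1838 in controls and 1470 to 2080 in cKO. Most of that sum was Ptprz1, at 1226 to 1592 CPM in controls and 1331 to 1962 CPM in cKO. In bulk RNA, fewer cells of a type and less RNA per cell cannot be told apart.

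Inka2 was higher in cKO while these lists were on average lower. With the mean of the 26 genes as a covariate in the edgeR fit, Inka2 had a log2 fold change of 2.50 (SE 0.43), no smaller than without it. For 3 of the 4 kinases the same covariate brought the values nearer 0: Pak1 went from −0.62 to −0.16 (standard error 0.41), Pak3 from −0.56 to −0.10 (0.56) and Pak4 from −1.14 to −0.74 (0.61), while Pak2 went from 0.020 to −0.12 (0.20). Control S6 and S7, the highest in Pak4, also had the highest levels of the committed precursor genes among all 8 libraries, 6.89 and 7.05. The same held for the oligodendrocyte precursor genes (5.15 and 5.95) but not for the myelinating genes. In those, control S1, the lowest control in Pak4, was at 6.45, against 6.41 in S6. Of the cKO libraries, S5 was lowest in Pak4 and highest in the myelinating genes, at 6.18. The mean log2 CPM of each lineage list was itself lower in cKO on average, so the covariate fit cannot separate lineage level from genotype. Standard errors grew with the covariate, for Pak4 from 0.44 to 0.61. The part of the oligodendrocyte lineage in the Inka2 and kinase values was not tested. Of the other cell types, neuronal genes (11) were at 1.23 to 2.04 log2 CPM in controls and 0.651 to 1.51 in cKO, with Slc32a1 at 0 in 1 library, and endothelial genes (8) at 1.93 to 2.78 and 0.675 to 2.57. Microglial genes (8) were at 0.337 to 1.77 and −0.029 to 2.49, mural genes (8) at 0.734 to 1.18 and 0.639 to 1.51, and ependymal genes (6) at −1.29 to 0.748 and −0.93 to 0.490. Fibroblast genes (6) ranged most widely, from −0.16 to 6.39 in controls and −0.24 to 4.07 in cKO. Control S6 was the highest in them, with 606 summed CPM against 76.1 to 193 in the other 7 libraries, and was also the highest in Pak3 and the next to highest in Pak4. Some genes of these lists had 0 counts in several of the 8 libraries. Among them were Kcnj8 and Ccdc153 in 7, Vtn in 5 and Lum in 4. Aif1, Col3a1, Dcn and Pifo were at 0 in 3 libraries each. A gene at 0 enters the mean at a value set by the prior count. The microglial, mural, fibroblast and ependymal means therefore depend in part on that prior count. The part of these cell types in the member values was not tested.

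The other genes of the pathway, 43 in all, were then examined. Of these, 41 were tested, 0 were higher and 1 was lower in cKO at an adjusted p under 0.05 (2.44%, against 0.318% of all genes). Log2 fold changes were above 0 for 16 and below 0 for 25, with a median of −0.10, beside −0.017 over all genes tested. Groups did not overlap for 2 of the 41, against 6.34% of all genes, and 5 had an unadjusted p under 0.05, against 9.81%. The list was drawn up with earlier results of these data known, so these counts too are given as a description.

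The gene that fell was Dynll1, which encodes the dynein light chain LC8, a protein described as a Pak1 substrate. It lies on chromosome 5 from 115297110 to 115300999, and no other annotated gene overlaps it. The controls held 129 (S1), 146 (S2), 124 (S6) and 154 (S7) CPM, and the cKO libraries 59.3 (S3), 74.7 (S4), 78.8 (S5) and 80.0 (S8) CPM. All cKO libraries were below all controls, with means of 138 CPM ± 14.3 and 73.2 CPM ± 9.52 (SD, n = 4 each). Its log2 fold change was −0.92 (SE 0.16; edgeR adjusted p = 0.0326). Leaving out any 1 of the 8 libraries ended the call, with log2 fold changes of −0.97 to −0.82 and edgeR adjusted p between 0.0705 and 0.137, in fits that hold fewer samples. So did the oligodendrocyte-lineage covariate (−0.96, edgeR adjusted p = 0.189) and Xist level as a covariate (−0.91, edgeR adjusted p = 0.0668). The authors' deposited table lists Dynll1 with a log2 fold change of −0.87 (SE 0.16, DESeq2 adjusted p = 1.94e-05). DESeq2 as run here also called it, among 306 genes, against 47 with edgeR.

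Among the small GTPases that bind the kinases, 7 of 8 were tested and 0 passed. Cdc42, the common activator of both groups, had a log2 fold change of 0.066 with a standard error of 0.15, and −0.024 without cKO S4. Rac1, the founding activator of Pak1, was at 344 and 406 mean CPM in controls and cKO, with a log2 fold change of 0.24 (standard error 0.19). Rhou, an atypical GTPase that also binds these kinases, was at 97.0 to 149 CPM in controls and 63.8 to 90.6 CPM in cKO. Those 2 ranges did not overlap, but the edgeR adjusted p was 0.198 (log2 fold change −0.64, SE 0.18); with DESeq2 it was 0.0441.

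Scaffolds and adaptors that place the kinases at adhesion sites were tested for 7 of 7 genes, and 0 passed. Arhgef7 (beta-PIX), an exchange factor that binds Pak1 directly, had a log2 fold change of −0.28 (standard error 0.21), and its partners Git1 and Git2 had −0.24 (0.17) and 0.14 (0.24); without cKO S5 Git2 was at −0.050. Nck2, an adaptor that links the kinases to tyrosine-phosphorylated proteins, had the largest value of these genes, 1.13 (standard error 0.52), at 2.31 and 5.10 mean CPM; its unadjusted p was under 0.05 and its edgeR adjusted p was 0.501. Of 5 inhibitors and phosphatases, 0 passed. Log2 fold changes were 0.31 (standard error 0.18) for the phosphatase Ppm1e and −0.33 (0.47) for Ppm1f, 0.37 (0.46) for the Pak1-binding protein Pak1ip1 and −0.20 (0.25) for Nf2, which encodes merlin, both a target and an inhibitor of the kinases. With the oligodendrocyte-lineage covariate the sign turned for Ppm1f (0.36) and Pak1ip1 (−0.099), and Ppm1f was at 0.042 without control S7.

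The LIM kinase and cofilin branch carries the signal to actin filaments: the kinases phosphorylate LIM kinases, which inactivate cofilin. All 8 genes were tested, 0 passed, and 7 of 8 had log2 fold changes below 0, beside 51.6% of all genes tested. Limk2 had the largest, −0.80 (standard error 0.24), at 27.9 to 60.6 CPM in controls and 24.1 to 32.3 CPM in cKO, with overlapping groups and an edgeR adjusted p of 0.252. Limk1 was at 5.58 and 4.26 mean CPM, and had −0.39 (standard error 0.39). For the actin-severing proteins Cfl1 and Cfl2 the values were −0.17 (standard error 0.16) and −0.20 (0.32), and their signs turned with the oligodendrocyte-lineage covariate, to 0.063 and 0.24. Without control S7 Cfl2 was at 0.096. Of 13 other substrates Dynll1 was the 1 that passed. Stmn1, a microtubule-destabilizing protein, was at 3.15 and 1.52 mean CPM with a log2 fold change of −1.06 (standard error 0.66). It was −0.36 without control S7 and 0.25 with the oligodendrocyte-lineage covariate, so its direction was not settled. Cttn, the actin-binding protein cortactin, had an unadjusted p under 0.05, at 15.6 and 29.6 mean CPM with a log2 fold change of 0.93 (standard error 0.35; edgeR adjusted p = 0.387) and 0.45 without cKO S5.

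**Figure D4:**
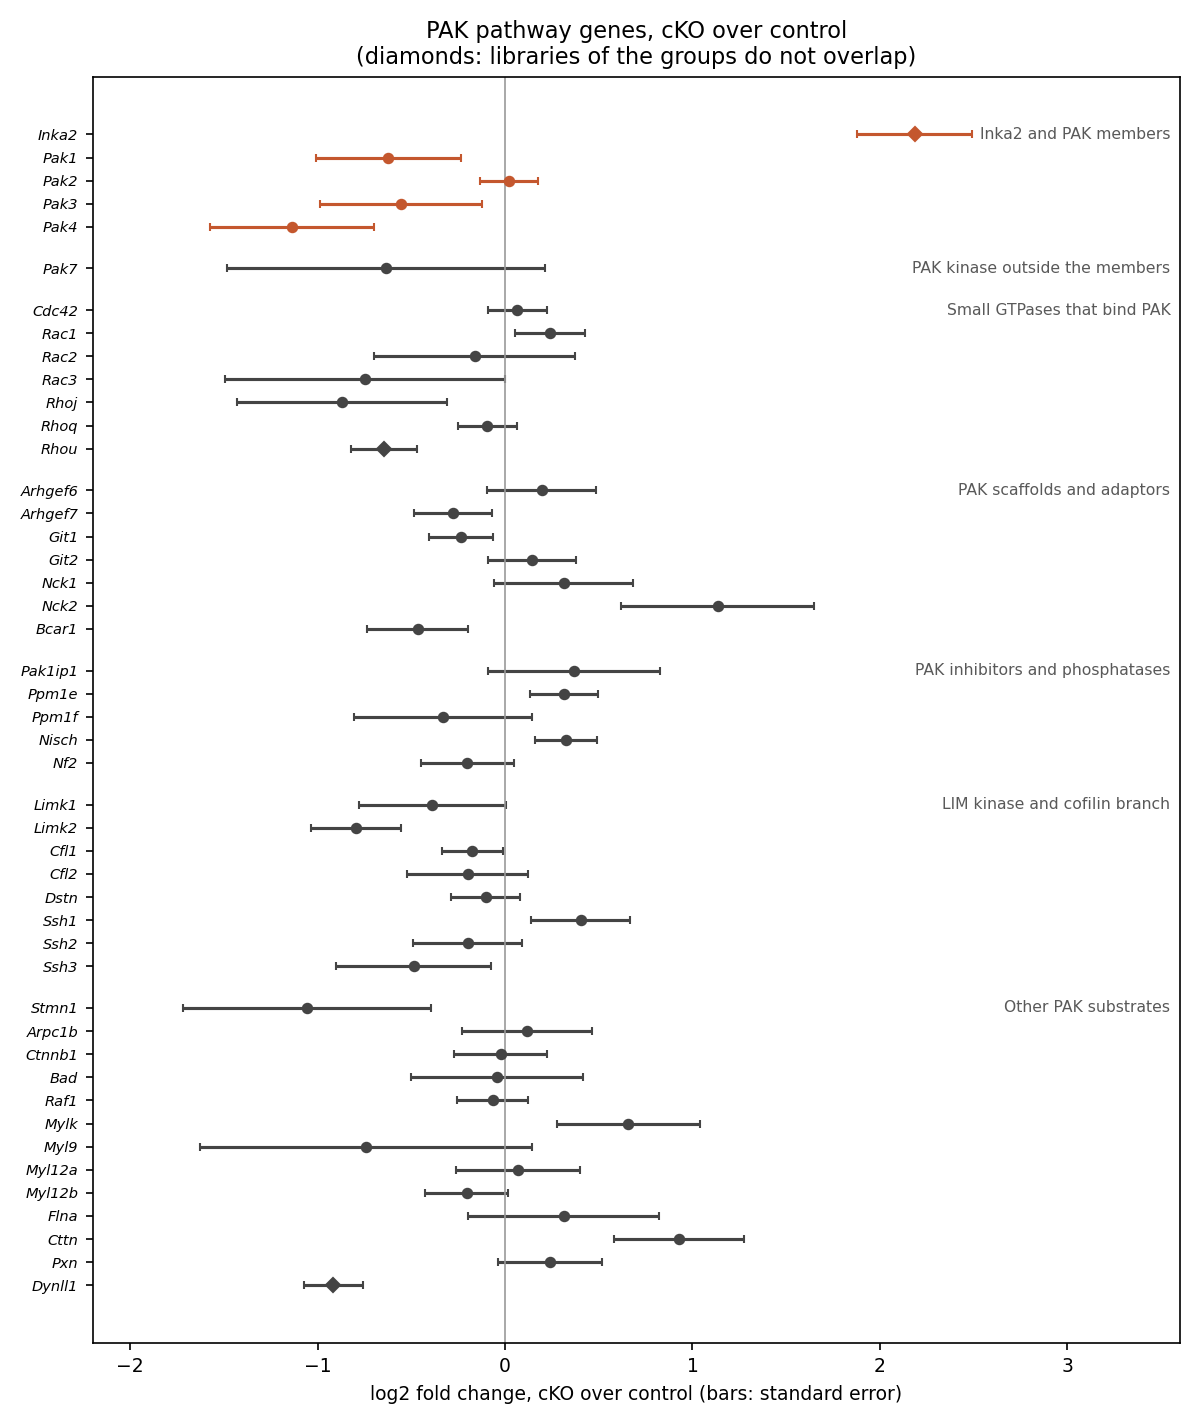
Log2 fold change, cKO over control, with its standard error (horizontal axis) for the 5 tested members (orange) and 41 tested pathway genes (grey), grouped by role; diamonds mark genes whose libraries do not overlap between the groups. Inka2 lies at 2.19, and the pathway genes lie between −1.06 and 1.13.

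Genes within 250 kb of Inka2 were read in the same fit. Of the 8 counted there, 7 passed the filter, and edgeR, DESeq2 and limma-voom each called 0 of them. I830077J02Rik, 203516 bp past the end of Inka2 and chosen after its values were seen, was the 1 of 7 with an unadjusted p under 0.05 in edgeR's test, against 9.81% of all genes. It was higher in cKO, as Inka2 was, at 0.199 and 1.43 mean CPM (log2 fold change 2.79, SE 1.21, edgeR adjusted p = 0.468), with counts of 3 (S1), 0 (S2), 11 (S6) and 0 (S7) in the controls and 4 (S3), 23 (S4), 41 (S5) and 50 (S8) in cKO, so the groups overlapped. The nearest tested genes are Ddx20, whose nearer edge lies 17025 bp before Inka2, and Rap1a, whose nearer edge lies 6425 bp after it. Both are on the minus strand, opposite to Inka2. Rap1a, a Ras-family GTPase, was at 33.6 and 36.5 mean CPM in controls and cKO (log2 fold change 0.12, standard error 0.27), and Ddx20, an RNA helicase, at 7.74 and 11.6 (0.58, 0.46). In both genes the libraries of the groups overlapped.

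Of the 5 genes whose profile over the 8 libraries lay nearest to that of Inka2, 4 were Zfp612, Pvt1, Slc38a1 and P4ha3, out of 12173 with a mean of at least 1 CPM. Nearness was the root mean square difference in log2 CPM after each gene's own mean was removed. It was 0.368 for Zfp612, a zinc finger protein, 0.456 for the long noncoding RNA Pvt1, 0.497 for the glutamine transporter Slc38a1 and 0.515 for the prolyl hydroxylase subunit P4ha3, beside a median of 1.28 over all those genes. The measure includes the genotype difference, and in these 4 genes each cKO library was above each control. Slc38a1 was at 74.0 (S1), 54.5 (S2), 73.9 (S6) and 53.1 (S7) CPM in the controls and at 249 (S3), 312 (S4), 344 (S5) and 242 (S8) CPM in cKO. Zfp612 shared with Inka2 its lowest value in control S6 (1.43 CPM) and its highest control value in S7 (5.12 CPM), but unlike Inka2 it was not lowest in cKO S3 within its group (11.8 CPM, against 9.93 in S8). Pvt1 shares 450 exon bases with other annotated genes, so its counts are uncertain.

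**Figure D5:**
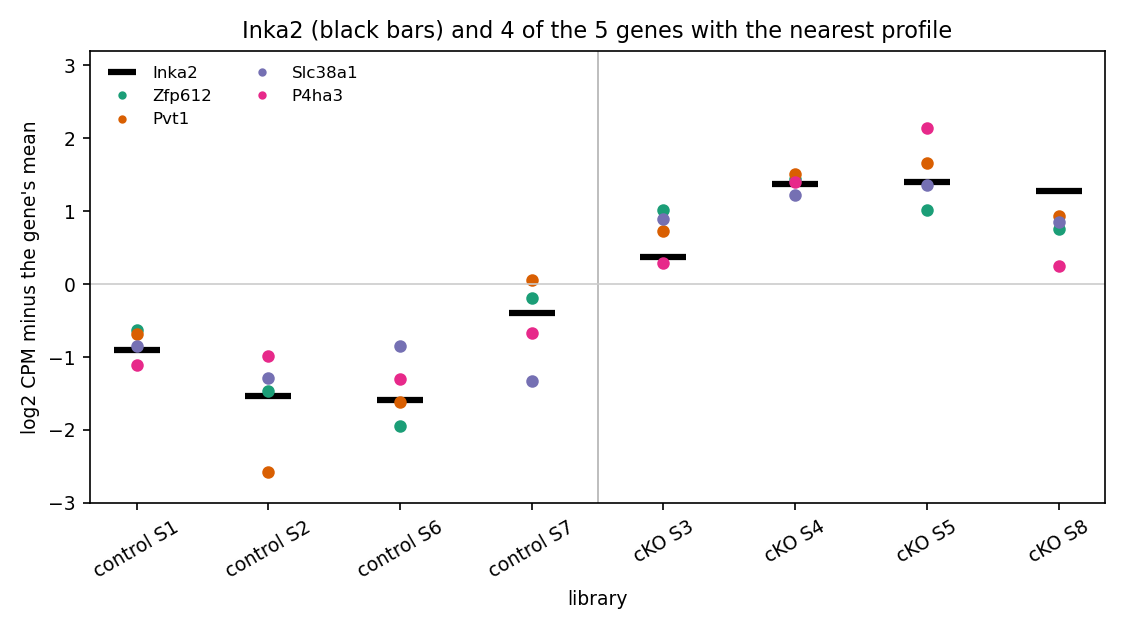
Log2 CPM minus each gene's mean over 8 libraries (vertical axis) for Inka2 (black bars) and 4 of the 5 genes nearest to it (coloured points), by library, with controls left of the line. All 5 plotted genes are lower in each control than in each cKO library.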

How the data were processed

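Per the labels, cords were dissociated with papain, GFP+ cells were sorted, and cDNA was made with the NuGEN RNA-Seq V2 kit. The submitters' processing notes name GRCm38, TopHat2 2.0.11, Bowtie2 2.2.3, HTSeq 0.6.1p1, DESeq2 1.14.1, Cuffnorm and Cufflinks 2.2.1; the strand setting is not given in the sources used here. The authors deposited raw counts per gene and library, whose 5 summary lines (56.4% to 61.7% of reads) were left out, and FPKM values. Only 3 of 8 FPKM columns tracked the counts deposited under their own name, and all 8 tracked a library of their group, so FPKM served for group values and comparisons within a column. The deposited DESeq2 table holds, per the file headers, group means of scaled counts (a signal), a log2 fold change, its standard error and Wald statistic (scores), and p-values.

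Counts of 14757 genes passing filterByExpr were fitted with edgeR 4.0.16 (TMM, quasi-likelihood test, no covariate, adjusted p under 0.05, R 4.3.3). The fit was also run on simulated counts, which varied less between replicates than these libraries (common biological coefficient of variation 0.473). That run therefore gives no error rate or power for these data. DESeq2 1.42.0 and limma-voom (limma 3.58.1), other scalings and filters, 2 covariates and leaving out each library were alternatives. Log2 CPM used a prior count of 2. Coordinates and exon lengths are from GENCODE M21 (GRCm38). The label design states 4 biological replicates per group and gives no batch. Members and gene lists were chosen with earlier results of these data known. Named by rule were all members, called and preset pathway genes, neighbours and the 5 genes nearest in profile, of which 1 is not reported here. The OPC list had 6 of 7 genes matched.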

Additional observations from a re-analysis of the deposited data

Results flagged for a closer look

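The highest or lowest library lay far from the rest, by its gap to the nearest value over the range of the group, in 4 of 52 groups of values examined, where about 1 in 20 is flagged by chance. Inka2 in cKO S3 was at 46.7 CPM, against 88.0 to 95.3 CPM in the other cKO libraries. Pak1 in cKO S8 was at 4.19 CPM, against 15.5 to 16.9 CPM in the others. Inka1 in cKO S4 was at 0.499 CPM, from 11 counts, while the other cKO libraries had 0. Pak7 in control S1 was at 0.634 CPM, against 1.56 to 1.75 CPM in the other controls.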

How the results depend on the processing

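Inka2 kept its direction in all 16 alternatives, with log2 fold changes of 2.04 to 2.49 across the fits that left out 1 library and 2.18 to 2.50 in the others. It was chosen for this difference and its groups did not overlap, so the kept direction is a description and not a test. The count of called kinases stayed at 0 and that of genes around Inka2 at 0 in all 16. In the pathway list 1 gene was called; the count was 2 with DESeq2 (Dynll1 and Rhou), 0 with the oligodendrocyte-lineage covariate, 0 with Xist level as a covariate, and 0 to 0 when any 1 library was left out. Over all genes, 47 were called, against 87 with a filter of at least 1 count in any library, 84 with at least 10 counts in every library, 306 with DESeq2, 8 with the lineage covariate and 28 with Xist. Leaving out 1 library gave 4 to 45: 30, 14 and 16 without control S1, S2 or S6, and 4, 24 and 28 without cKO S4, S5 or S8. The cause was not tested. Library totals in place of TMM moved the median of all genes from −0.017 to 0.091 and gave 48 higher and 14 lower calls, against 30 and 17; Pak2 was then at 0.12, near that median, and Inka2 at 2.27. The order of levels gave 2 separated pairs in all 11 alternatives, while Inka2 and Pak4 changed places in the 4 that left out a cKO library. With the median in place of the mean over a marker list, the cKO minus control difference was −0.28 in place of 0.13 for astrocytes and −1.02 in place of −0.62 for neurons. No paired analysis was made, since the sample labels give no pairing between the groups. The low counts of Pak6 (31 in all) and Inka1 (70 in all) limit what can be read from these 2 genes.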
